A study of Daphnia magna with 20 samples.

Results

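The globins of the water flea Daphnia magna were followed through 5 names of the expression table: di-domain hemoglobin precursor, di-domain hemoglobin precursor/arp2_g2466, globin, globin/arp2_g2285 and hemoglobin subunit theta-1. They were chosen by name, as hemoglobin and globin entries among 7784 names, and not by their values, though earlier results of these data were known. All 5 passed the filter on low values, and none was at 0 in any library. The table pairs its names with protein descriptions only, and 0 of the 5 matched the gene table of the reference, so no position, length or sequence could be attached to them. Hemoglobin subunit theta-1 carries the name of a human globin, and its role in Daphnia is not given by the name. Cytoglobin and neuroglobin names are not among the 5.

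RNA came from pools of whole daphnids in 4 groups of 5 libraries. The nano_low group was exposed to an ethylene acrylic acid copolymer at 2.3e11 particles per litre, and the nano_high group to the same polymer at 2.3e12 particles per litre. The silica group was exposed to fumed silica at 2.3e12, for which no unit is stated, and the control group to the vehicle. All groups shared a 21 day test with regularly renewed water and daily algae and yeast feed that was withheld on day 21. The labelled stage is neonates less than a day old, so the labels leave unclear how old the animals were when RNA was taken, and how many made up a pool. Dissolved oxygen is named among the water measurements of the protocol, and its values were not analysed here. Nothing says that the libraries of a group came from separate cultures, so the p-values reflect only how these samples spread, which may be technical. In RNA from whole animals, fewer globin-making cells and less globin RNA per cell cannot be told apart.

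Daphnia carry hemoglobin as a large complex dissolved in the hemolymph, not inside blood cells. Its chains are di-domain globins, in which a pair of heme-binding domains is joined in 1 polypeptide, and several near-identical genes encode them. The RNA is known to be made in fat cells and in the epithelium of the limb appendages, and to increase when oxygen is scarce, through hypoxia-inducible factor, and when juvenile hormone analogues are given. Each domain needs a heme group, so heme synthesis and iron supply are needed for the finished pigment.

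Library totals ran from 9689064 to 40227246 estimated counts in nano_low, from 39087882 to 95906857 in nano_high, from 7912434 to 54862334 in silica and from 11918440 to 26562258 in control. Levels are given in CPM, counts per 1000000 of the scaled library total. The first principal component of all names except the 5 globins held 38.9% of the variance, and 5 libraries stood apart at its low end: nano_low 1, nano_high 4, nano_high 5, control 4 and control 5, at scores of -55.1, -53.2, -33.6, -54.0 and -55.2. Near-identical hemoglobin genes may have been joined under 1 name or may share reads, so each name is a sum whose gene content is uncertain. Without lengths, levels of different names are not compared.

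The 5 names together took up a median of 0.565% of all counts in nano_low (0.395% to 0.607%), 0.511% in nano_high (0.293% to 0.666%), 0.458% in silica (0.349% to 0.471%) and 0.468% in control (0.423% to 0.597%). The ranges overlapped between all groups. The depth behind them was ample for 4 names, whose lowest estimated count in a library was 649. It was thin for hemoglobin subunit theta-1, with 46.6 to 467 counts.

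Di-domain hemoglobin precursor stands for the chain of the respiratory pigment. It was at 2175, 3874, 4125, 3781 and 3990 CPM in nano_low libraries 1 to 5 and at 3854, 3234, 4119, 5794 and 1726 CPM in nano_high. It was at 3274, 3266, 3220, 2398 and 3065 CPM in silica and at 3391, 3929, 3983, 3565 and 2839 CPM in control. The highest and the lowest of all 20 values were both in nano_high, and the groups overlapped. The group means were 3589 ± 801, 3746 ± 1474, 3045 ± 371 and 3541 ± 464 CPM in nano_low, nano_high, silica and control (SD, n = 5 each), and no neighbours in the order of means (nano_high, nano_low, control, silica) differed beyond their spread.

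Against control, the fitted fold of di-domain hemoglobin precursor was 1.01 in nano_low (95% interval 0.725 to 1.42), 1.06 in nano_high (0.757 to 1.48) and 0.860 in silica (0.615 to 1.20). None of these passed the edgeR quasi-likelihood test (adjusted p = 0.971, 0.872 and 0.546). The SE of the log2 fold change was 0.23 in each of these comparisons. The smallest change that 5 libraries a group can detect was not tested. In nano_low and nano_high the sign of the difference rested on single libraries, while in silica it was negative with any library left out (log2 fold change -0.29 to -0.14). Without nano_high 4 the log2 fold change of nano_high against control was -0.14, against 0.08 with it. For nano_low against control it was 0.02 with all libraries, and it was negative without nano_low 2, 3, 4 or 5 or control 5 (lowest -0.05).

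The second di-domain name, di-domain hemoglobin precursor/arp2_g2466, was at 521, 601, 887, 632 and 476 CPM in nano_low and at 454, 729, 738, 502 and 403 CPM in nano_high. It was at 496, 546, 651, 197 and 758 CPM in silica and at 654, 820, 466, 411 and 434 CPM in control. Silica 4 held the lowest value of the 20 and nano_low 3 the highest, a 4.49-fold range, and every group overlapped every other. The means were 623 ± 160, 565 ± 158, 530 ± 211 and 557 ± 175 CPM in nano_low, nano_high, silica and control (SD, n = 5 each). The fitted fold against control was 1.12 in nano_low (95% interval 0.733 to 1.71), 1.01 in nano_high (0.665 to 1.55) and 0.951 in silica (0.623 to 1.45), with edgeR adjusted p of 0.821, 0.978 and 0.882. The difference of silica from control turned to 0.14 on the log2 scale without silica 4 and to 0.11 without control 2.

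The name globin gives no more than the protein family, the heme-binding fold shared by oxygen carriers and oxygen-storing proteins. It was at 88.9, 157, 112, 152 and 71.6 CPM in nano_low and at 76.7, 138, 76.9, 125 and 151 CPM in nano_high. It was at 107, 107, 93.2, 62.1 and 143 CPM in silica and at 112, 146, 107, 124 and 110 CPM in control. The control libraries lay closest together, and each exposed group reached both below and, but for silica, above them. The means were 116 ± 37.8, 114 ± 34.8, 103 ± 29.2 and 120 ± 16.1 CPM in nano_low, nano_high, silica and control (SD, n = 5 each), with folds against control of 0.971 (95% interval 0.682 to 1.38), 0.949 (0.666 to 1.35) and 0.857 (0.601 to 1.22) in nano_low, nano_high and silica. The edgeR adjusted p were 0.945, 0.888 and 0.559.

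The name globin/arp2_g2285, a second globin entry with a gene tag, differed most between groups. It was at 671, 1219, 913, 1008 and 1265 CPM in nano_low and at 854, 725, 873, 981 and 693 CPM in nano_high. It was at 1140, 465, 622, 636 and 995 CPM in silica and at 713, 899, 807, 335 and 491 CPM in control. In nano_low 4 of the 5 libraries were above the highest control library, while nano_low 1 lay inside the control range. The means were 1015 ± 242, 825 ± 117, 772 ± 283 and 649 ± 232 CPM in nano_low, nano_high, silica and control (SD, n = 5 each).

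For nano_low against control, globin/arp2_g2285 had a log2 fold change of 0.65 (SE 0.26), a fold of 1.56 with a 95% interval of 1.07 to 2.29. Its unadjusted edgeR p was 0.0246 and its adjusted p 0.293, so it was not called. DESeq2 gave an unadjusted p of 0.0151 and an adjusted p of 0.195, and the exact permutation test of log2 CPM gave a two-sided p of 0.0556, where 5 against 5 libraries can reach 0.00794. Over the alternatives the adjusted p from tests across all names ran from 0.110 (without nano_low 1) to 0.571 (without control 4). The log2 fold change was 0.50 with the first principal component in the fit and 0.45 without the 5 libraries at its low end.

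The other differences of globin/arp2_g2285 were smaller. Nano_high stood at a fold of 1.27 (95% interval 0.868 to 1.86) and silica at 1.19 (0.811 to 1.74) against control, with edgeR adjusted p of 0.449 and 0.545. Of 25 collagen names, markers of connective tissue, 24 had a positive log2 fold change in nano_low against control (median 0.62), 18 in nano_high against control (median 0.43) and 24 in silica against control (median 0.62), with 0 called in each. Over all names 51.2%, 52.5% and 52.9% were positive in these comparisons, with medians of 0.01, 0.02 and 0.03. The summed collagen level was 2259 to 13168 CPM in nano_low, 3727 to 12025 CPM in nano_high, 7657 to 16762 CPM in silica and 2902 to 10152 CPM in control. 1 of the 26 collagen names in the table was at 0 throughout nano_low, nano_high and control, and none throughout silica. Median Pearson's r with globin/arp2_g2285 within groups was 0.528 for 14 muscle, 0.415 for 41 cuticle and 0.381 for 25 collagen names. It was -0.182 for 23 gut and -0.417 for 4 germline names, against -0.024 over all names. The part of tissue composition in the difference of globin/arp2_g2285 was not tested.

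Hemoglobin subunit theta-1 was a rare transcript. It was at 3.38, 6.60, 5.44, 7.76 and 4.76 CPM in nano_low and at 6.91, 3.72, 6.07, 5.42 and 3.20 CPM in nano_high. It was at 6.76, 5.42, 4.84, 7.08 and 6.27 CPM in silica and at 5.12, 3.23, 6.20, 5.21 and 4.31 CPM in control. Silica libraries lay towards the top and close together, but all groups overlapped. The means were 5.59 ± 1.68, 5.06 ± 1.57, 6.07 ± 0.933 and 4.81 ± 1.11 CPM in nano_low, nano_high, silica and control (SD, n = 5 each). The fold against control was 1.16 in nano_low (95% interval 0.815 to 1.65), 1.05 in nano_high (0.742 to 1.49) and 1.26 in silica (0.884 to 1.79), with edgeR adjusted p of 0.704, 0.892 and 0.385.

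**Figure D1:**
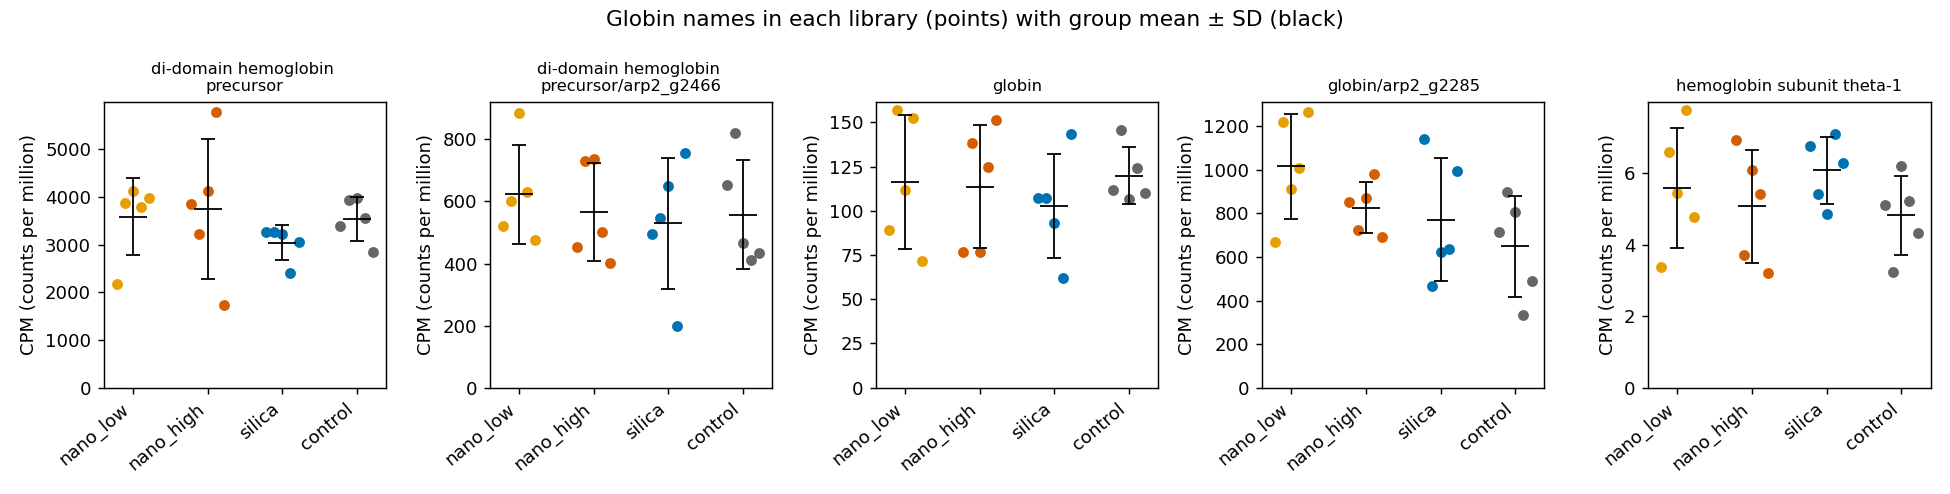
Level of each globin name in CPM (y axis, starting at 0) in the 20 libraries by group (x axis), with points for libraries and black bars for the group mean ± SD (n = 5). Di-domain hemoglobin precursor spreads from 1726 to 5794 CPM within nano_high alone, while 4 of 5 nano_low values of globin/arp2_g2285 lie above the highest control value of 899 CPM.

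Among the exposed groups the 5 names were also set against each other, to separate the polymer from silica and the higher dose from the lower. For di-domain hemoglobin precursor the fold was 1.04 in nano_high against nano_low (95% interval 0.747 to 1.46), 1.23 in nano_high against silica (0.880 to 1.72) and 1.18 in nano_low against silica (0.843 to 1.65). For globin/arp2_g2285 the fold was 0.813 in nano_high against nano_low (95% interval 0.555 to 1.19), 1.07 in nano_high against silica (0.730 to 1.57) and 1.32 in nano_low against silica (0.898 to 1.93). Every one of these intervals included 1, and the edgeR adjusted p were 0.962, 0.430 and 0.901 for the first name and 0.841, 0.843 and 0.864 for the second.

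Over 6 comparisons and 5 names, 0 of 30 edgeR tests were called at an adjusted p of 0.05, 1 had an unadjusted p under 0.05, and DESeq2 likewise called 0 with 1 unadjusted p under 0.05. The background differed between comparisons: 0.621% of the 7564 names tested were called in nano_low against control, 10.1% in nano_high against control (5.17% as higher, 4.89% as lower) and 0.701% in silica against control. It was 5.35% in nano_high against silica (2.37% higher and 2.99% lower), and 0% in nano_high against nano_low and in nano_low against silica by edgeR, where 511 and 431 names had an unadjusted p under 0.05 and DESeq2 called 4 and 8. A count of 0 among 5 names is near each of these shares. The counts behind them depend on single libraries: as each library was left out, 8 to 236 names were called in nano_low against control, 413 to 967 in nano_high against control, 0 to 132 in silica against control and 77 to 652 in nano_high against silica. These extremes came without control 4 and nano_low 1 in the first, without nano_high 3 at the low end of the second, without control 2, 3, 4 or 5 or silica 1, 4 or 5 (each 0) and without control 1 in the third, and without nano_high 5 and nano_high 1 in the fourth.

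**Figure D2:**
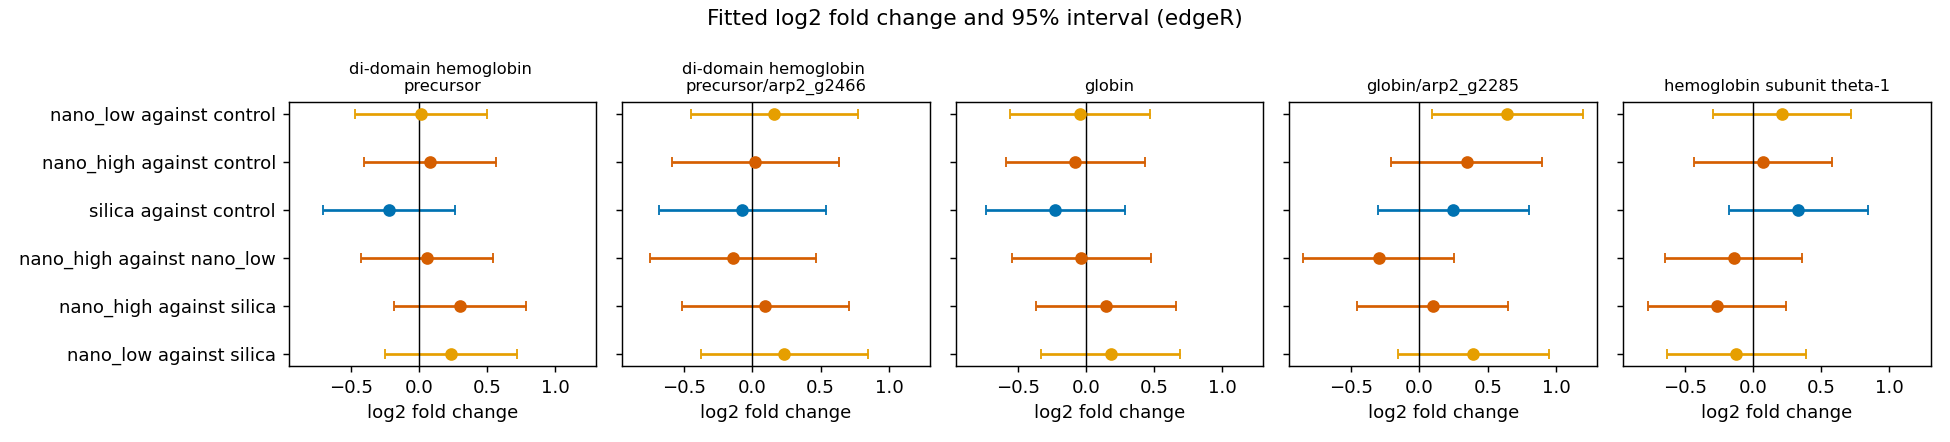
Fitted log2 fold change (x axis) with its 95% interval for each globin name in the 6 comparisons (rows, first group over second). The interval of globin/arp2_g2285 in nano_low against control, at a log2 fold change of 0.65, is the only one of the 30 that leaves out 0.

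Differences between groups made up little of the variation of most of these names. The share of the log2 variance that lay between the 4 groups was 6.12% for di-domain hemoglobin precursor, 6.28% for di-domain hemoglobin precursor/arp2_g2466 and 6.05% for globin, against a median of 24.3% over all names tested. It was 28.5% for globin/arp2_g2285 and 13.6% for hemoglobin subunit theta-1. Within groups the names spread more than most. Their SD of log2 CPM was 0.40, 0.51, 0.42, 0.45 and 0.39 in the order of the opening sentence, against a median of 0.28, and 68.5% to 78.8% of all names had a lower one.

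The spread was not the same in each group. Di-domain hemoglobin precursor had a coefficient of variation of 22.3% in nano_low, 39.3% in nano_high, 12.2% in silica and 13.1% in control. The wide spread in nano_high came from nano_high 4 and nano_high 5, both at the low end of the first principal component. The difference in spread was not tested. The second di-domain name was most variable in silica, at 39.9%, against 31.5% in control.

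The balance of the di-domain names also varied between libraries. The CPM of di-domain hemoglobin precursor/arp2_g2466 equalled 8.23% to 24.7% of that of di-domain hemoglobin precursor. This ratio depends on the unknown lengths and is read only across libraries. Its group medians were 16.7% in nano_low, 17.9% in nano_high, 16.7% in silica and 15.3% in control. The lowest values, 8.23% in silica 4 and 8.67% in nano_high 4, came from a low second name in silica 4 and from a high first name in nano_high 4.

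The 5 names did not move as a block. Over the 20 libraries, Pearson's r of log2 CPM ran from -0.217 to 0.464 among the 10 pairs. The highest was between di-domain hemoglobin precursor/arp2_g2466 and globin (r = 0.464, rho = 0.325, permutation p = 0.0368 and 0.162, adjusted over the pairs 0.252 and 0.324). It was 0.215 without nano_low 3 and silica 4, so it rested on those libraries. The di-domain names had r = 0.406 with each other (rho = 0.331, permutation p = 0.0794 and 0.155, adjusted 0.252 and 0.324), 0.483 without nano_high 4 and nano_high 5, and 0.379 within groups. None of the 10 pairs passed after adjustment in permutation tests of 100000 resamples.

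Hemoglobin subunit theta-1 followed the main axis of variation between libraries. Its log2 CPM had r = 0.650 and rho = 0.741 with the first principal component of the other names (permutation p = 0.00249 and 0.00022, adjusted over 5 such relations 0.0124 and 0.0011). Within groups r was 0.582, and without control 5 and nano_low 1, the 2 libraries farthest from the median, it was 0.569. Over all names the median size of this r was 0.566, so a relation of this size was common in the table. For globin/arp2_g2285 r was 0.475 and rho 0.463 (permutation p = 0.0332 and 0.0411, adjusted 0.083 and 0.103), and 0.389 without those 2 libraries. Di-domain hemoglobin precursor, with r = 0.180, di-domain hemoglobin precursor/arp2_g2466, with 0.118, and globin, with -0.213, lay well under the median size (permutation p = 0.452, 0.630 and 0.366).

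**Figure D3:**
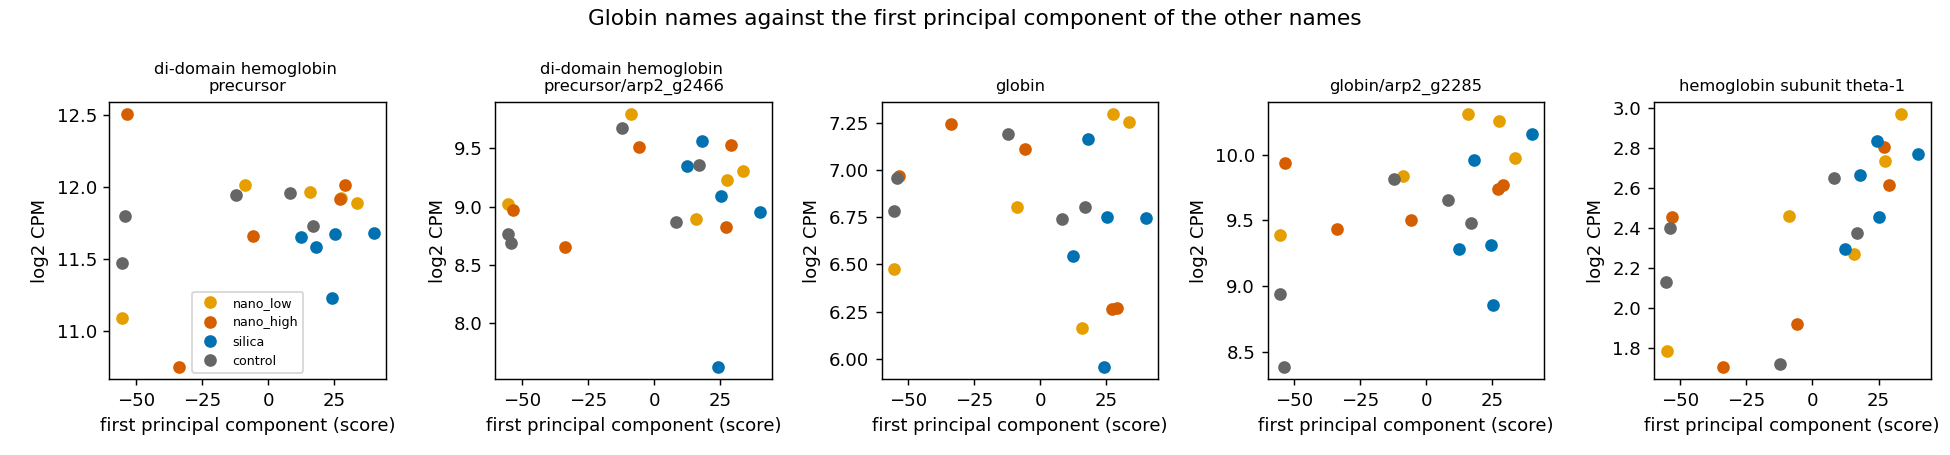
Log2 CPM of each globin name (y axis) against the score of the library on the first principal component of all other names (x axis), with points for libraries coloured by group. Hemoglobin subunit theta-1 runs along the component (r = 0.650), while di-domain hemoglobin precursor has both its highest and its lowest value among the libraries with negative scores.

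The names whose levels were most like each globin were found by Pearson's r of log2 CPM over the 20 libraries, among 6809 names with an informative description and a mean of at least 1 CPM. For di-domain hemoglobin precursor the first was spondin-1, an extracellular matrix protein (r = 0.796, rho = 0.618, r = 0.511 without nano_high 4 and nano_high 5). The second was atp-binding cassette sub-family b member 10, mitochondrial, a transporter of the inner mitochondrial membrane that is needed for heme production in mammalian red cell precursors (r = 0.744, rho = 0.629, 0.696 without the same libraries). Dodeca-satellite-binding protein (0.728) and monocarboxylate transporter 5 (0.685) came next, at 0.462 and 0.233 without the 2 libraries. The fifth was coproporphyrinogen-iii oxidase, mitochondrial, an enzyme of heme synthesis (r = 0.680, rho = 0.538, 0.547 without them, 0.760 within groups).

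The other globins had other companions. Di-domain hemoglobin precursor/arp2_g2466 was most like n-glycosylase/dna lyase (r = 0.715), 5-methylcytosine rrna methyltransferase nsun4 (0.705), alpha-mannosidase 2c1 (0.697), very long-chain fatty acyl-coa elongase (0.689) and rna recognition motif protein split ends/arp2_g2353 (0.686). Globin was most like e3 ubiquitin-protein ligase shprh snf2/arp2_g2578 (r = 0.721), then transport system membrane protein/arp2_g1821, zinc finger with ufm1-specific peptidase domain protein, ld21546p, transportin-serine/arginine rich and ld16058p (0.682 to 0.624). Globin/arp2_g2285 was most like nadh-ubiquinone oxidoreductase kda subunit/arp2_g4030, part of the respiratory chain (r = 0.787), and fibulin-1, a matrix protein (0.743), followed by carbon catabolite repressor protein/arp2_g3760, propionyl-coenzyme a carboxylase and microtubule-associated protein tau (0.741 to 0.696). For hemoglobin subunit theta-1 the values were highest: nadph oxidase, which makes superoxide, had r = 0.873 and flavin reductase r = 0.870, with ubiquitin-conjugating enzyme variant, glycine receptor subunit alpha-3 and choline/ethanolaminephosphotransferase at 0.862 to 0.859. All these values come from the top of 6809 names over 20 libraries and are given as a description.

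Covariation within groups was then fitted for all names with edgeR, with the log2 CPM of a globin as a term beside the group means, a fit chosen after the values were seen. For hemoglobin subunit theta-1, 2104 of the other 7563 names were called (27.8%), 1062 with it (14.0%) and 1042 against it (13.8%). They included 9 of 15 glycolysis names, 11 of 25 collagen names and 8 of 14 muscle names, beside 3 of 10 heme synthesis names. Of the other lists, 3 of 4 germline, 2 of 6 hemocyte and 2 of 9 juvenoid signalling names were called. So were 4 of 29 eye, 2 of 18 heme and iron handling, 4 of 41 cuticle and 2 of 23 gut names. Among 7 oxygen sensing, 4 yolk and 1 lipoprotein names 0 were called. Alternatives to this fit were run for di-domain hemoglobin precursor only, with 0 to 2340 names called as each library was left out. How the count for hemoglobin subunit theta-1 depends on single libraries was not tested. For the other 4 globins 0 names were called: the lowest adjusted p was 0.128 for di-domain hemoglobin precursor, 0.510 for di-domain hemoglobin precursor/arp2_g2466, 1 for globin and 0.236 for globin/arp2_g2285, and 792, 373, 206 and 1508 names had an unadjusted p under 0.05.

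Heme synthesis was followed beside di-domain hemoglobin precursor because every globin domain carries a heme. The 10 names of this pathway in the table run from 5-aminolevulinate synthase, which makes the first intermediate, to ferrochelatase, which inserts the iron. All 10 had a positive r with di-domain hemoglobin precursor over the 20 libraries, with a median of 0.367, against 50.3% positive and a median of 0.00235 over all names. Within groups 9 of 10 slopes were positive, with a median of 0.25 log2 units per log2 unit, against 51.5% positive and a median of 0.01 over all names. Other lists had as many positive slopes on di-domain hemoglobin precursor: 24 of 25 collagen names (median 1.92, 6 at an unadjusted p under 0.05), 13 of 15 glycolysis names (median 0.33) and 12 of 14 muscle names (median 0.42), with 0 called in each. The median r within groups was 0.400 for heme synthesis, 0.345 for collagen, 0.372 for glycolysis and 0.356 for muscle. None of the 10 heme synthesis names passed the edgeR test, with 3 at an unadjusted p under 0.05 and a lowest adjusted p of 0.209.

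The 3 names with an unadjusted p under 0.05 were uroporphyrinogen decarboxylase, coproporphyrinogen-iii oxidase and delta-aminolevulinic acid dehydratase. Uroporphyrinogen decarboxylase had a slope of 0.75 (SE 0.15, edgeR adjusted p = 0.209), and its r was 0.649 over all libraries and 0.802 within groups. Its level was 194 CPM in nano_high 4 and 78.6 CPM in nano_high 5, the libraries with the highest and the lowest di-domain hemoglobin precursor. Coproporphyrinogen-iii oxidase, mitochondrial, the enzyme after it, had a slope of 0.64 (SE 0.15, edgeR adjusted p = 0.256) and was at 89.0 CPM in nano_high 4 and 44.9 CPM in nano_high 5. Delta-aminolevulinic acid dehydratase, which makes porphobilinogen, had a slope of 1.53 (SE 0.43, edgeR adjusted p = 0.343) and was at 16.7 CPM in nano_high 4 and 5.11 CPM in nano_high 5. Over the 20 libraries the means of these 3 names were 175, 87.6 and 23.7 CPM in the order given. Nano_high 5 held the lowest level of each, while delta-aminolevulinic acid dehydratase in nano_high 4 was below its mean. The entry enzymes had slopes within 1 SE of 0: 5-aminolevulinic acid synthase/arp2_g2184 had a slope of 0.04 (SE 0.14), and 5-aminolevulinate synthase, nonspecific, mitochondrial one of -0.04 (SE 0.16). Porphobilinogen deaminase, uroporphyrinogen-iii synthase, protoporphyrinogen oxidase and the ferrochelatase names had slopes of 0.15 to 0.54.

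**Figure D4:**
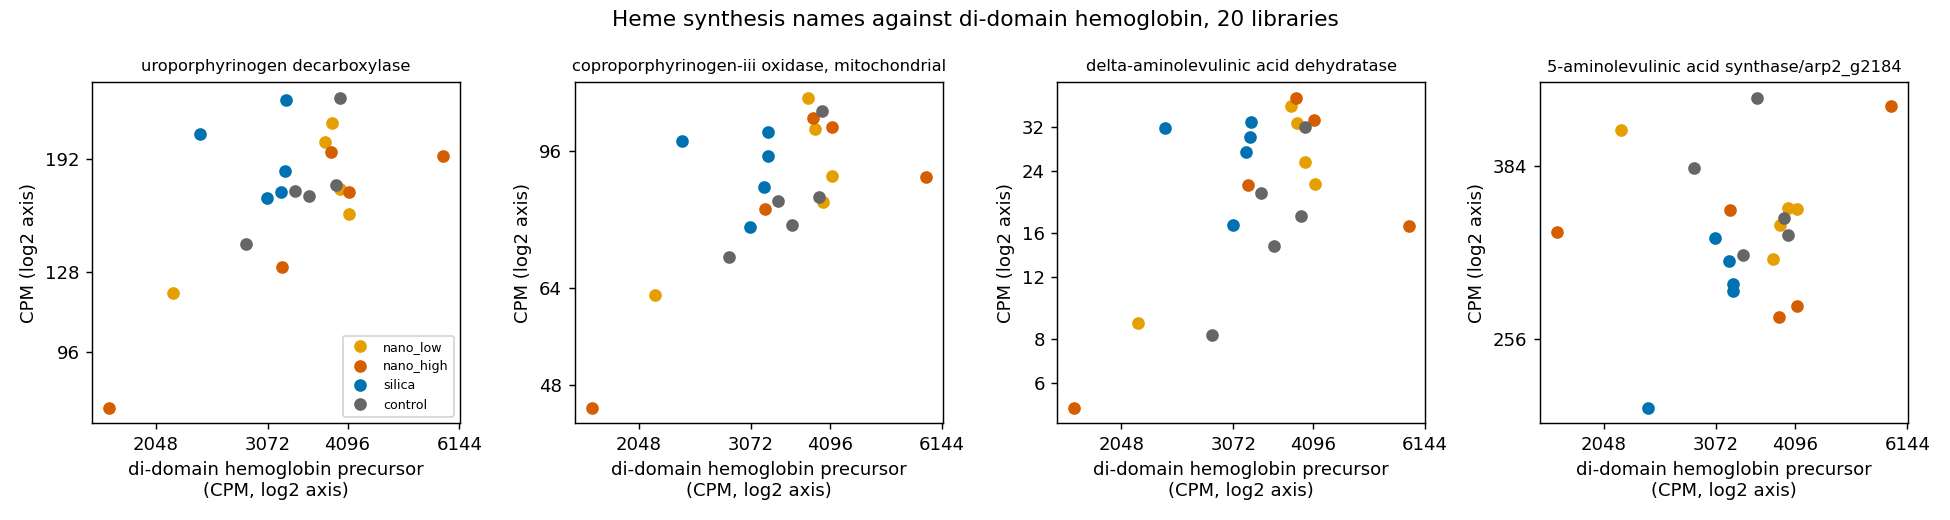
Level of 4 heme synthesis names (y axis, CPM on a log2 axis) against di-domain hemoglobin precursor (x axis, CPM on a log2 axis) in the 20 libraries, coloured by group. Uroporphyrinogen decarboxylase, coproporphyrinogen-iii oxidase and delta-aminolevulinic acid dehydratase are lowest in nano_high 5, the library with 1726 CPM of di-domain hemoglobin precursor, while 5-aminolevulinic acid synthase/arp2_g2184 shows no such order.

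This pattern rested in part on the libraries at the ends of the hemoglobin range. Without nano_high 4 and nano_high 5, 4 of 10 slopes were positive and their median was -0.15. Those of uroporphyrinogen decarboxylase, coproporphyrinogen-iii oxidase and delta-aminolevulinic acid dehydratase stayed positive, at 0.66, 0.59 and 1.67, with edgeR adjusted p of 0.0878, 0.0737 and 0.058. Porphobilinogen deaminase was at 1.58, also with 0.058. Without nano_high 5 alone 8 slopes were positive and the lowest adjusted p was 0.906. Without nano_high 4 alone 6 were positive and 4 were called, among 2340 names called in all. With the first principal component in the fit all 10 were positive and protoporphyrinogen oxidase was called (slope 0.43, edgeR adjusted p = 0.00322).

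**Figure D5:**
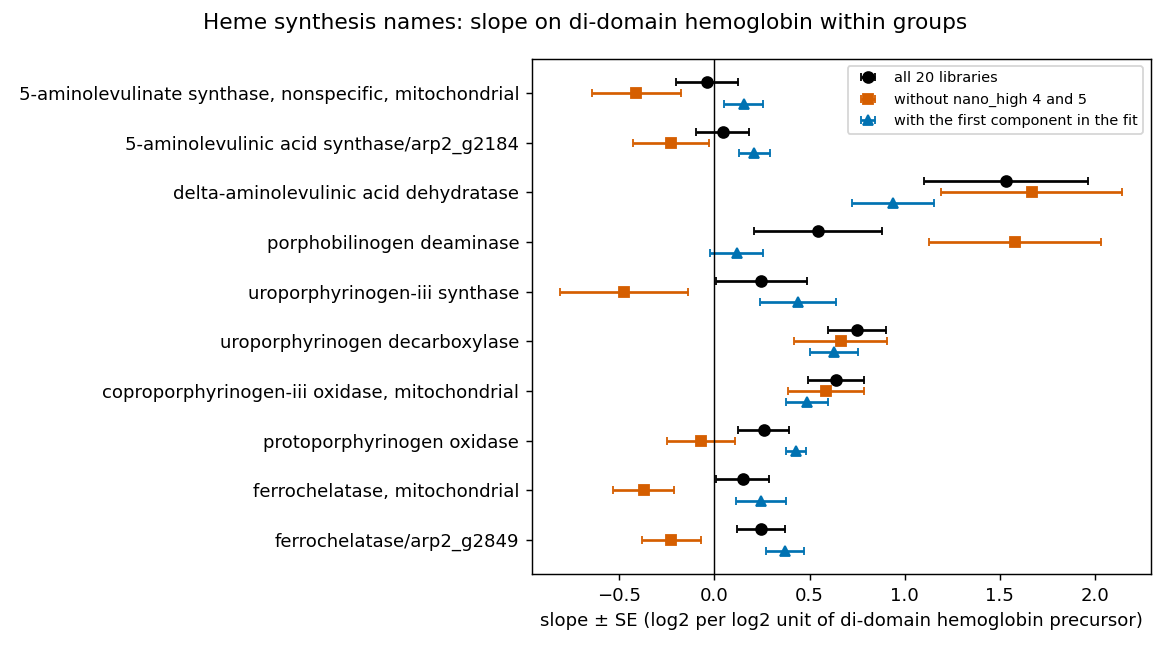
Slope ± SE of each heme synthesis name on di-domain hemoglobin precursor within groups (x axis, log2 units per log2 unit), in pathway order from top to bottom. Circles use all 20 libraries, squares leave out nano_high 4 and nano_high 5, and triangles add the first principal component to the fit. Uroporphyrinogen decarboxylase, coproporphyrinogen-iii oxidase and delta-aminolevulinic acid dehydratase stay to the right of 0 in all 3 fits. So does porphobilinogen deaminase, though with the component its slope of 0.12 is within 1 SE (0.14) of 0.

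The pathways that act on hemoglobin production were then read from the group comparisons. Of the 10 heme synthesis names 0 were called in any of the 6 comparisons by edgeR. In nano_high against control the median log2 fold change of this list was -0.08, against 0.02 over all names, and in silica against control it was -0.11, against 0.03. The name with the lowest edgeR p against control was protoporphyrinogen oxidase in silica against control, at 40.7 ± 2.10 CPM in silica and 53.3 ± 8.83 CPM in control (SD, n = 5 each; edgeR adjusted p = 0.155).

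Of the 7 names on the oxygen sensing list, matched by wording, 1 fell and 0 rose in nano_high against control. In this comparison 4.89% of all names were called lower and 5.17% higher, so 1 of 7 is near the background. Von hippel-lindau disease tumor suppressor, the part of a ubiquitin ligase that marks hypoxia-inducible factor for degradation when oxygen is plentiful, was at 16.4 ± 1.88 CPM in nano_high and 22.8 ± 2.23 CPM in control (SD, n = 5 each; log2 fold change -0.48, SE 0.10, edgeR adjusted p = 0.00646). It was also lower in nano_high than in silica, at 24.4 ± 2.49 CPM (log2 fold change -0.58, edgeR adjusted p = 0.007). Nano_high libraries spanned 14.9 to 18.5 CPM, below the ranges of silica (21.6 to 28.4 CPM) and control (20.4 to 26.0 CPM), which overlapped each other. Nano_low, at 19.5 ± 1.70 CPM (17.1 to 21.4 CPM), overlapped both nano_high and control. The log2 fold change of nano_high against nano_low was -0.25 and was not called (edgeR adjusted p = 0.662). Of all names tested, 4.79% had every nano_high library below every control library and 4.27% had every one below every silica library. Without the 5 libraries at the low end of the first principal component the log2 fold changes were -0.38 against control and -0.50 against silica, and neither was called (edgeR adjusted p = 0.063 and 0.0557). The call against silica was also lost with only the 2 groups in the fit (adjusted p = 0.0537). In nano_low against control and in silica against control 0 of the 7 were called. The lowest p there was that of hypoxia up-regulated protein, a chaperone of the endoplasmic reticulum that is on the list by its wording. It was at 160 ± 24.8 CPM in nano_low and 149 ± 19.4 CPM in silica, against 120 ± 22.8 CPM in control (edgeR adjusted p = 0.248 and 0.229).

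Of the 18 heme and iron handling names, 4 fell and 1 rose in nano_high against control, where 4.89% of all names were called lower and 5.17% higher. The median log2 fold change was -0.19, against 0.02 over all names. Among tissue markers, 8 of 29 eye, 3 of 23 gut, 1 of 4 yolk and 1 of 4 germline names were called lower in the same comparison. In these lists 0 were called higher, and 0 were called of 41 cuticle, 25 collagen, 14 muscle, 6 hemocyte and 1 lipoprotein names. The summed eye level was 1840 to 4288 CPM in nano_high and 3781 to 8144 CPM in control, and the summed gut level 8627 to 12085 CPM in nano_high and 9779 to 16901 CPM in control. In nano_low and silica the eye level was 2806 to 4777 and 2702 to 3127 CPM, and the gut level 7566 to 10712 and 8007 to 12214 CPM. No eye or gut name was at 0 throughout any group, and the part of tissue composition in the iron names was not tested. The 4 that fell store or handle iron: ferritin 2 light chain, ferritin, heavy subunit, ferritin protein d and frataxin, mitochondrial. Ferritin protein d was at 127 ± 41.6 CPM in nano_high and 249 ± 57.3 CPM in control (SD, n = 5 each; log2 fold change -0.97, SE 0.23, edgeR adjusted p = 0.0123). Its nano_high libraries (76.7 to 178 CPM) lay below all control libraries (202 to 337 CPM). The heavy subunit ranged from 848 to 1485 CPM in nano_high and from 1621 to 2370 CPM in control, and the light chain from 152 to 184 CPM in nano_high and from 216 to 352 CPM in control. The light chain was no longer called without the 5 libraries at the low end of the first principal component (log2 fold change -0.51, edgeR adjusted p = 0.0523), while the other ferritin names were called in all 20 alternatives.

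Frataxin, an iron chaperone of mitochondria, was at 18.0 ± 2.33 CPM in nano_high and 23.1 ± 1.87 CPM in control (SD, n = 5 each; log2 fold change -0.36, edgeR adjusted p = 0.033). Its call was lost without nano_high 2, 4 or 5 (adjusted p = 0.0646, 0.0543 and 0.0737) and without control 3, 4 or 5 (0.0942, 0.0516 and 0.0628). It was also lost with only the 2 groups in the fit (adjusted p = 0.0842) and without the 5 libraries at the low end of the first principal component (log2 fold change -0.26, adjusted p = 0.156). Against silica, at 26.0 ± 2.19 CPM, frataxin was lower in nano_high with a log2 fold change of -0.53 (edgeR adjusted p = 0.0108, but 0.0554 with only the 2 groups in the fit and 0.0718 at -0.41 without those 5 libraries). The 1 name that rose, pyruvate dehydrogenase [acetyl-transferring]-phosphatase 2, mitochondrial, acts on pyruvate metabolism and entered the list by its wording alone. Its log2 fold change was 0.38, and its call was lost with library totals only (0.31, edgeR adjusted p = 0.0988) and without the 5 libraries at the low end (0.37, adjusted p = 0.0558). Without the 2 names of that kind, 4 of 16 fell and 0 rose. In nano_low against control and in silica against control 0 iron names were called, and the lowest adjusted p were 0.0586 for ferritin 2 light chain in nano_low (182 ± 16.9 CPM, against 269 ± 53.6 CPM in control) and 0.087 for ferritin protein d in silica (144 ± 19.3 CPM).

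Of the 9 juvenoid signalling names, 1 rose and 2 fell in nano_high against control, beside 5.17% of all names called higher and 4.89% called lower. Juvenile hormone resistance protein was at 25.1 ± 5.36 CPM in nano_high and 15.9 ± 2.20 CPM in control (SD, n = 5 each; log2 fold change 0.66, SE 0.15, edgeR adjusted p = 0.0128). It was called in all 20 alternatives. In nano_low and silica this name stood at 21.5 ± 3.55 and 21.3 ± 3.08 CPM, and it was not called against control. The log2 fold changes there were 0.44 and 0.42 (edgeR adjusted p = 0.219 and 0.149). Juvenile hormone epoxide hydrolase 1, juvenile hormone epoxide hydrolase i, rh03631p, which degrades the hormone in insects, was at 21.1 ± 3.15 CPM in nano_high and 30.3 ± 5.84 CPM in control (log2 fold change -0.52, edgeR adjusted p = 0.0287). That call was lost in 9 of 20 alternatives, among them those without nano_high 1, 2, 3 or 5 (adjusted p = 0.0634, 0.0647, 0.0758 and 0.0551) and without control 4 or 5 (0.0893 and 0.0588). The name juvenile hormone esterase binding protein 29, ld24657p stood at 13.8 ± 1.54 CPM in nano_high, 19.6 ± 2.61 CPM in silica and 19.1 ± 3.92 CPM in control. It was lower in nano_high than in control (log2 fold change -0.47, edgeR adjusted p = 0.0266, lost in 5 of 20 alternatives, among them without nano_high 5, control 1 or control 3 at 0.063, 0.0575 and 0.0826). It was also lower than in silica (-0.50, adjusted p = 0.0328, lost in 10 of 20, among them without nano_high 2, 4 or 5 at 0.0576, 0.0778 and 0.0935 and without silica 1, 2 or 4 at 0.0827, 0.0604 and 0.0845).

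Glycolysis, which gains weight when oxygen is scarce, was followed through 15 names. None was called in nano_low, nano_high or silica against control, where the medians of the list were 0.18, 0.03 and 0.20 on the log2 scale. The lowest adjusted p by edgeR were 0.210 and 0.179 for ketohexokinase in nano_low and nano_high and 0.0683 for hexokinase type in silica. Ketohexokinase acts on fructose, is not a step of glycolysis and is among the 15 by its wording alone. In nano_high against silica 1 rose: l-lactate dehydrogenase/arp2_g1395, which turns pyruvate into lactate, at 14.8 ± 3.02 CPM in nano_high and 9.91 ± 1.35 CPM in silica (SD, n = 5 each; log2 fold change 0.58, edgeR adjusted p = 0.0495). Its call was lost in 12 of 20 alternatives, among them those without nano_high 2, 4 or 5 (adjusted p = 0.0786, 0.107 and 0.138) and without silica 1, 2, 4 or 5 (0.133, 0.0949, 0.0935 and 0.0815). None of the 5 globin names was called beside any of these changes.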

How the data were processed

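Pooled whole daphnids gave 20 libraries. Per the labels' protocols, poly-A RNA went through a stranded kit, and libraries shared sequencing pools that cannot be traced here. R 3.4.3 and Salmon 0.12.0 are named in the submitters' processing notes. Not given in the sources used here were the reference and the step that made names out of transcripts. The authors deposited a table called normalized, whose values were read as estimated counts, because column totals differ 12.1-fold and the most repeated low value is 0.979 to 1.01 in each library. Each column was matched to 1 library, and 0 of 40 replicate pairs were identical. Total counts set the precision of each library, and the intervals given cover the spread between libraries.

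After rounding, a name was tested if 5 or more libraries had a value of 1 or more (7564 tested, 220 not). TMM factors were 0.898 to 1.14. Group means were estimated in edgeR 4.0.16 (R 4.3.3, limma 3.58.1) from the 20 libraries at once, with two-sided quasi-likelihood tests and Benjamini-Hochberg adjustment over the names tested. Called means an adjusted p under 0.05. CPM refer to 1000000 scaled counts, with a prior count of 2 before log2. DESeq2 1.42.0 was an alternative. Descriptions and figures came from Python 3.11.15 (numpy 2.4.6, pandas 2.3.3, matplotlib 3.10.9, scipy 1.17.1). The tests were checked on simulated data.

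The 5 names, the lists and the tests were chosen with earlier results of these data known. Lists are patterns on the names. Named are the 5 globins in every comparison, per list and comparison up to 4 called names with the smallest p (otherwise the name with the smallest p), and per globin the 5 names with the highest r. Frataxin in nano_high against control, called but outside those 4, is given as well. Alternatives were other size factors, other filters, DESeq2, a replicate block, fits of 2 groups, the first principal component as a covariate, thinning to the smallest total, exact permutation tests and leaving out each library. Covariation with a globin, leaving out the 5 libraries at the low end of the component, and the iron list without 2 names were added after the values were seen. Marker lists were made for yolk, lipoprotein, cuticle, collagen, muscle, hemocytes, gut, germline and eye. Levels, changes or correlations are given of the collagen, cuticle, muscle, gut, germline and eye lists only. Of the yolk, lipoprotein and hemocyte lists, only counts of called names are given.

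The replicate numbers were checked for pairing by correlating the libraries' deviations from their group means. Over 30 same-numbered pairs this ran from -0.636 to 0.650 (median 0.0130), with 8 above 0.1, and the numbers were not treated as pairs.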

Additional observations from a re-analysis of the deposited data

Results flagged for a closer look

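In each of the 20 combinations of a globin name and a group, the gap between the most extreme library and its nearest neighbour was divided by the group's range and set against Dixon's critical value of 0.71. Chance passes about 1 in 20 groups, and 2 of 20 passed, both for di-domain hemoglobin precursor and both at the low end. In nano_low, replicate 1 was at 2175 CPM, while the other libraries lay between 3781 and 4125 CPM (gap over range 0.824). In silica, replicate 4 was at 2398 CPM, while the others lay between 3065 and 3274 CPM (gap over range 0.762). Nano_low 1 was one of the 5 libraries at the low end of the first principal component, with a score of -55.1, and silica 4 was not, with a score of 24.3. What sets these libraries apart was not tested.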

How the results depend on the processing

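Of 630 differences of the globin names recomputed under alternatives 0 were called, with a lowest adjusted p of 0.110, and 54 took the other sign, 34 of 300 with a library left out and 20 of 330 in the rest. Depth limits hemoglobin subunit theta-1 most, with 46.6 counts in its thinnest library, and every group rests on 5 libraries. Of the 20 libraries, 3 correlated best with a library of their own replicate number, and the numbers were not treated as pairs. That count cannot show that same-numbered libraries shared nothing. With the replicate block 13, 611, 0, 0, 267 and 0 names were called in nano_low against control, nano_high against control, silica against control, nano_high against nano_low, nano_high against silica and nano_low against silica, where 47, 761, 53, 0, 405 and 0 were called without it.

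In the same order DESeq2 called 227, 1152, 399, 4, 919 and 8 names. In nano_low against control 1, 3, 187 and 24 were called with library totals only, 2 groups in the fit, the first principal component in the fit and thinned counts. In nano_high against control 372 were called with 2 groups and 1748 with the component. In silica against control 401 were called with 2 groups, and 0 with library totals only, with the component and without the 5 low-end libraries. In nano_high against silica 184, 36, 652, 235 and 38 were called with library totals only, 2 groups, the component, thinned counts and without those 5. Thinned counts gave 1 call in nano_high against nano_low, and the component gave 4 in nano_low against silica and 1 for covariation with di-domain hemoglobin precursor. With 1 library left out the counts ran from 8 to 236, 413 to 967, 0 to 132, 0 to 0, 77 to 652 and 0 to 0. For covariation with di-domain hemoglobin precursor, the only globin for which this was run, they ran from 0 to 2340.

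Differences and slopes that took the other sign were not called there (lowest edgeR adjusted p of a slope 0.123), and the cause was not tested. All values here are log2 fold changes, against control unless stated. With library totals only they were -0.020 and -0.0063 for di-domain hemoglobin precursor in nano_low and nano_high, and -0.037 and -0.0052 for di-domain hemoglobin precursor/arp2_g2466 and hemoglobin subunit theta-1 in nano_high. With the component they were -0.052 for di-domain hemoglobin precursor in nano_low, -0.016 and -0.026 for di-domain hemoglobin precursor/arp2_g2466 and hemoglobin subunit theta-1 in nano_high, and -0.032 for globin/arp2_g2285 in silica. Thinned counts gave -0.0056 for di-domain hemoglobin precursor/arp2_g2466 in nano_high, and 0.17 for hemoglobin subunit theta-1 in nano_low against silica. Without the 5 low-end libraries they were 0.020 for globin in nano_low, -0.012 and -0.015 for di-domain hemoglobin precursor and di-domain hemoglobin precursor/arp2_g2466 in nano_high, and -0.064 for globin/arp2_g2285 in silica. They were also -0.078 for di-domain hemoglobin precursor in nano_high against nano_low, -0.076 for globin in nano_high against silica and 0.016 for hemoglobin subunit theta-1 in nano_low against silica. In the means of log2 CPM behind the exact permutation test di-domain hemoglobin precursor was at -0.0068 in nano_low, -0.013 in nano_high and -0.0060 in nano_high against nano_low.

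With 1 library left out, di-domain hemoglobin precursor ran between -0.050 and 0.15 in nano_low, between -0.14 and 0.26 in nano_high and between -0.15 and 0.24 in nano_high against nano_low. Di-domain hemoglobin precursor/arp2_g2466 ran from -0.093 to 0.20 in nano_high, from -0.24 to 0.14 in silica, from -0.26 to 0.020 in nano_high against nano_low and from -0.12 to 0.26 in nano_high against silica. Globin ran between -0.17 and 0.091 in nano_low, between -0.20 and 0.036 in nano_high and between -0.17 and 0.098 in nano_high against nano_low. Globin/arp2_g2285 ran from -0.040 to 0.28 in nano_high against silica. Hemoglobin subunit theta-1 ran from -0.076 to 0.20 in nano_high, from -0.28 to 0.0041 in nano_high against nano_low and from -0.26 to 0.021 in nano_low against silica.

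Among slopes on di-domain hemoglobin precursor, that of 5-aminolevulinic acid synthase/arp2_g2184 was -0.087 with library totals only and that of 5-aminolevulinate synthase, nonspecific, mitochondrial 0.15 with the component. Without nano_high 4 and nano_high 5 the slopes were -0.23 for 5-aminolevulinic acid synthase/arp2_g2184, -0.37 for ferrochelatase, mitochondrial, -0.23 for ferrochelatase/arp2_g2849, -0.072 for protoporphyrinogen oxidase and -0.48 for uroporphyrinogen-iii synthase. With 1 library left out they ran from -0.31 to 0.14 for 5-aminolevulinate synthase, nonspecific, mitochondrial, from -0.18 to 0.17 for 5-aminolevulinic acid synthase/arp2_g2184, from -0.061 to 0.35 for ferrochelatase, mitochondrial and from -0.16 to 0.36 for uroporphyrinogen-iii synthase.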

Other observations

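Beside the 5 names, the table holds 3 more globins, cytoglobin, cytoglobin-2 and neuroglobin, which were looked at after their values were seen. Cytoglobins are globins of the cell interior, known from vertebrates. Cytoglobin was at 653, 563, 556, 723 and 756 CPM in nano_low libraries 1 to 5, and at 460, 515, 532, 451 and 442 CPM in nano_high. It was at 1248, 826, 864, 664 and 1273 CPM in silica and at 888, 682, 727, 661 and 606 CPM in control. Every nano_high library lay below every other library of the series. Of all names tested, 4.79% had every nano_high library below every control library, 4.27% below every silica library and 0.595% below every nano_low library. Cytoglobin fell in nano_high against control, with a log2 fold change of -0.57 (SE 0.16, edgeR adjusted p = 0.0291), and against silica, with -1.02 (SE 0.16, edgeR adjusted p = 0.00446). In these comparisons 4.89% and 2.99% of all names were called lower. The call against control was lost without nano_high 1 (edgeR adjusted p = 0.0565), nano_high 5 (0.0623), control 1 (0.0697) or control 3 (0.0617), and without the 5 libraries at the low end of the first principal component, where the log2 fold change was -0.61 (0.0989). The call against silica was lost in that last setting alone of 20 (log2 fold change -0.96, edgeR adjusted p = 0.0557). In silica against control the log2 fold change was 0.45 (edgeR adjusted p = 0.139). Cytoglobin was not called in nano_high against nano_low, with a log2 fold change of -0.44 (edgeR adjusted p = 0.644). Nor was it called in nano_low against control (-0.13, adjusted p = 0.714) or in nano_low against silica (-0.58, adjusted p = 0.520).

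Neuroglobin, named for the globin of vertebrate nerve cells, was at 5.20 ± 2.66, 4.84 ± 2.34, 5.82 ± 1.99 and 3.51 ± 2.45 CPM in nano_low, nano_high, silica and control (SD, n = 5 each), and it was not called by edgeR in any comparison (lowest adjusted p = 0.338 in silica against control). Over the 20 libraries its log2 CPM had r = 0.903 and rho = 0.910 with the first principal component (unadjusted permutation p = 1e-05 for each, the smallest that the resamples can give), 0.866 without control 5 and nano_low 1 and 0.904 within groups. Hemoglobin subunit theta-1 had r = 0.650 with the same component. Cytoglobin-2 was at 0 in 16 libraries and under 1 CPM in the others.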
